A study of Drosophila melanogaster with 42 samples.

Results

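Male Drosophila melanogaster heterozygous for Indy206 were compared between middle age, day 40 and 50, and young adulthood, day 10 and 20. The arrays were chosen by their titles alone, 2 each from day 10 and day 20 and 3 each from day 40 and day 50, which makes 10 of the 42 arrays of the series. Every gene on the array belongs to the comparison. Between these ages 5 of 13 measured subunits of the mitochondrial ATP synthase and 5 of 11 enzymes of the citric acid cycle fell. Of 20 measured muscle markers 3 fell, among them a troponin gene of the flight muscle, and 6 lay above 0 without a call. Over the same interval 5 of 8 subunits of the cytosolic chaperonin, 5 of 25 subunits of the proteasome and the gene of the immune factor Relish rose. Of all genes and spots tested 0.383% were called lower and 0.671% higher. The chaperonin list was drawn up after its values were seen. With 1 array at a time left out the counts of falls ran from 1 to 5 for ATP synthase, 2 to 5 for the citric acid cycle and 1 to 3 for the muscle markers. The counts of rises ran from 2 to 6 for both the chaperonin and the proteasome, and Relish was called in 4 of 10 fits.

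Indy, for I'm Not Dead Yet, encodes a transporter that carries citrate across the plasma membrane of fly cells, and it is best known because flies with reduced Indy activity live longer. Citrate feeds the citric acid cycle in mitochondria and lipid synthesis in the cytosol. In ageing flies in general, transcripts of mitochondrial energy metabolism are known to decline and those of the innate immune response to increase.

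The Indy206 flies carried the mutant allele over a Canton-S chromosome (Indy206/CS), and the matched control males were 2216/CS, so both genotypes were heterozygous over Canton-S. Each replicate was RNA from 15 males whose head and thorax were dissected on a cold block, taken up in Trizol and amplified in 1 linear round with T7 polymerase. Each array set 1 such sample, in Cy5, against a common Cy3 reference pooled from control RNA of all ages. As a model the comparison is limited to males, to 1 control line, and to a mixture of tissues in which fewer cells of a type and less RNA per cell cannot be told apart.

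A level below is the log2 ratio of sample over reference on 1 array, with spots of a gene averaged, and a difference is the mean of the 6 older arrays minus the mean of the 4 younger ones, with its standard error (SE). It was tested with limma in a fit of 16 group means over all 42 arrays, and called at an adjusted p under 0.05 over 19077 units, namely 9904 single genes and the spots that pair with no gene or with several. Array medians ran from -0.014 to 0.0019. The number of arrays limits the precision, and since ratios against a pool carry no absolute level, the dissected tissue could not be checked by the presence or absence of its markers. Replicates are separate samples of flies.

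Indy itself was low in the flies labelled Indy206. On the 4 younger arrays it was -1.46, -0.98, -1.28 and -0.87, and on the 6 older ones -1.51, -0.82, -1.10, -1.08, -1.25 and -1.62. The 10 control arrays of the same ages lay between -0.49 and 0.11, above every Indy206 array. With age the level of Indy differed by -0.08 ± 0.13 (SE) in Indy206, which was not called (adjusted p = 0.94).

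A block of spots stood apart on some arrays. Among the spots numbered 1 to 10000, the last 25 positions of each of 16 runs of equal length, 400 spots in all, did not follow the other arrays on 8 arrays: all 4 arrays of day 5, and replicates 1 and 2 of day 20 in both genotypes. Over these spots the correlation with the mean of the other 34 arrays was -0.01 to 0.06 on the 8 arrays and at least 0.86 on each of the 34, a description across spots. Both Indy206 arrays of day 20 are among the 8, and the 287 single genes on these spots have day 20 values that are not read as a change with age. Counts over all units include the spots unless stated otherwise. Of the gene lists below 12 have members on them, and leaving the spots out moved a list median by at most 0.04, in the testis list. It took away the 1 call of the testis list, the 1 call of the accessory gland list and 1 of the 2 calls among the aminoacyl-tRNA synthetases.

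Over all units 201 (1.05%) were called in the Indy206 flies, 128 higher (0.671%) and 73 lower (0.383%) at day 40 and 50. Of the called units 163 were single genes, 102 higher and 61 lower, and 20 of the 163 lay on the 400 spots. Without these spots 163 units were called, 107 higher and 56 lower, and 129 of the 143 called single genes off the spots were called again. The median difference over all units was -0.02, and 56.1% of units lay below 0. At an unadjusted p under 0.05 there were 1831 units, where 954 make 5 percent of all. The older and the younger arrays did not overlap for 463 units (2.43%), 261 of them higher (1.37%) and 202 lower (1.06%) with age, and 12 of the 463 lay on the 400 spots.

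The count moved with the arrays and the groups of the fit. With the 21 Indy206 arrays alone it was 264, with the 10 arrays of the comparison and 4 group means 134, and with the same 10 arrays pooled into 2 groups 14. Of the 163 called single genes 131, 65 and 8 were called again in these fits, in the same order. When 1 array at a time was left out the count was 98 without day 10 replicate 1, 69 without day 20 replicate 1, 132 without day 40 replicate 2, 108 without day 50 replicate 1 and between 139 and 205 for the other 6 arrays, and between 1 and 21 of these calls lay on the 400 spots. All 163 single genes kept their direction in each of these 10 fits. The same arrays chose these genes, so a kept direction adds little, and the 20 genes on the 400 spots kept theirs too. Off the 400 spots 27 of the 143 genes were called in all 10 of them, and 61 in at least 8.

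The named rises and falls below were taken only from called genes whose older and younger arrays do not overlap. Their lack of overlap is set by this rule and is no further result. The largest rise by the rule was that of CG10814, which the gene table also lists as gamma-BBH. Its day 10 levels were -2.39 and -1.79 and its day 20 levels -1.33 and -0.92, against -0.50, -0.73 and -0.80 on the day 40 arrays and 1.33, 1.47 and 0.46 on those of day 50. Every older array lay above every younger one, and the day 50 arrays lay above those of day 40. The difference was 1.81 ± 0.30 (SE), or 3.52-fold, with adjusted p = 0.0021. CG18563, listed as the serine protease homologue SPH156, rose by 1.71 ± 0.39 (adjusted p = 0.023), from between -2.16 and -1.19 to between -0.84 and 1.34. CG4757 rose by 1.29 ± 0.28 (adjusted p = 0.019) and CG7017 by 1.25 ± 0.32 (adjusted p = 0.045).

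RPA1, the large subunit of the protein that binds single-stranded DNA during replication and repair, had levels of -0.69, -0.87, -0.47 and -0.31 on the younger arrays. On the older ones it stood at 0.26, -0.12, 0.03, 0.32, 0.68 and 0.75, all above the younger arrays, which the rule requires. The rise was 0.90 ± 0.12, or 1.87-fold, and had the smallest adjusted p of all units, 0.00035. RnrL, the large subunit of ribonucleotide reductase, which makes deoxynucleotides, rose by 0.79 ± 0.14 (adjusted p = 0.0044). It was the 1 call among the 19 measured genes of the DNA replication list, which does not hold RPA1 and had a median difference of -0.06.

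Among the other named rises, unc-45 encodes a chaperone that folds myosin. Its younger arrays stood at 0.03, 0.01, -0.09 and 0.08, and its older ones at 0.92, 0.38, 1.33, 0.57, 0.52 and 1.47. The groups did not overlap, which the rule requires, and the rise was 0.86 ± 0.17, or 1.82-fold (adjusted p = 0.0092). Nfs1, the cysteine desulfurase that supplies sulfur for iron-sulfur clusters, rose by 0.85 ± 0.17 (adjusted p = 0.0085). The tetraspanin Tsp42Ed rose by 0.90 ± 0.19 (adjusted p = 0.015) and Neurochondrin by 0.94 ± 0.16 (adjusted p = 0.0021). RtcB, the ligase that joins the cut parts of a tRNA, rose by 0.78 ± 0.15 (adjusted p = 0.0055).

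Not all of these calls held when an array was left out. CG10814, Neurochondrin, RPA1, CCT5 and RnrL were called in all 10 fits. Without day 20 replicate 1 the adjusted p was 0.077 for Tsp42Ed, 0.064 for unc-45, 0.1 for Nfs1, 0.064 for Prosbeta5 and 0.068 for RtcB. Without day 10 replicate 1 it was 0.13 for CG18563, 0.32 for CG7017 and 0.16 for Rel, and without day 10 replicate 2 it was 0.12 for CG4757. CG18563 was called in 5 of the 10 fits, CG7017 in 2, Rel in 4 and CG4757 in 7.

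**Figure D1:**
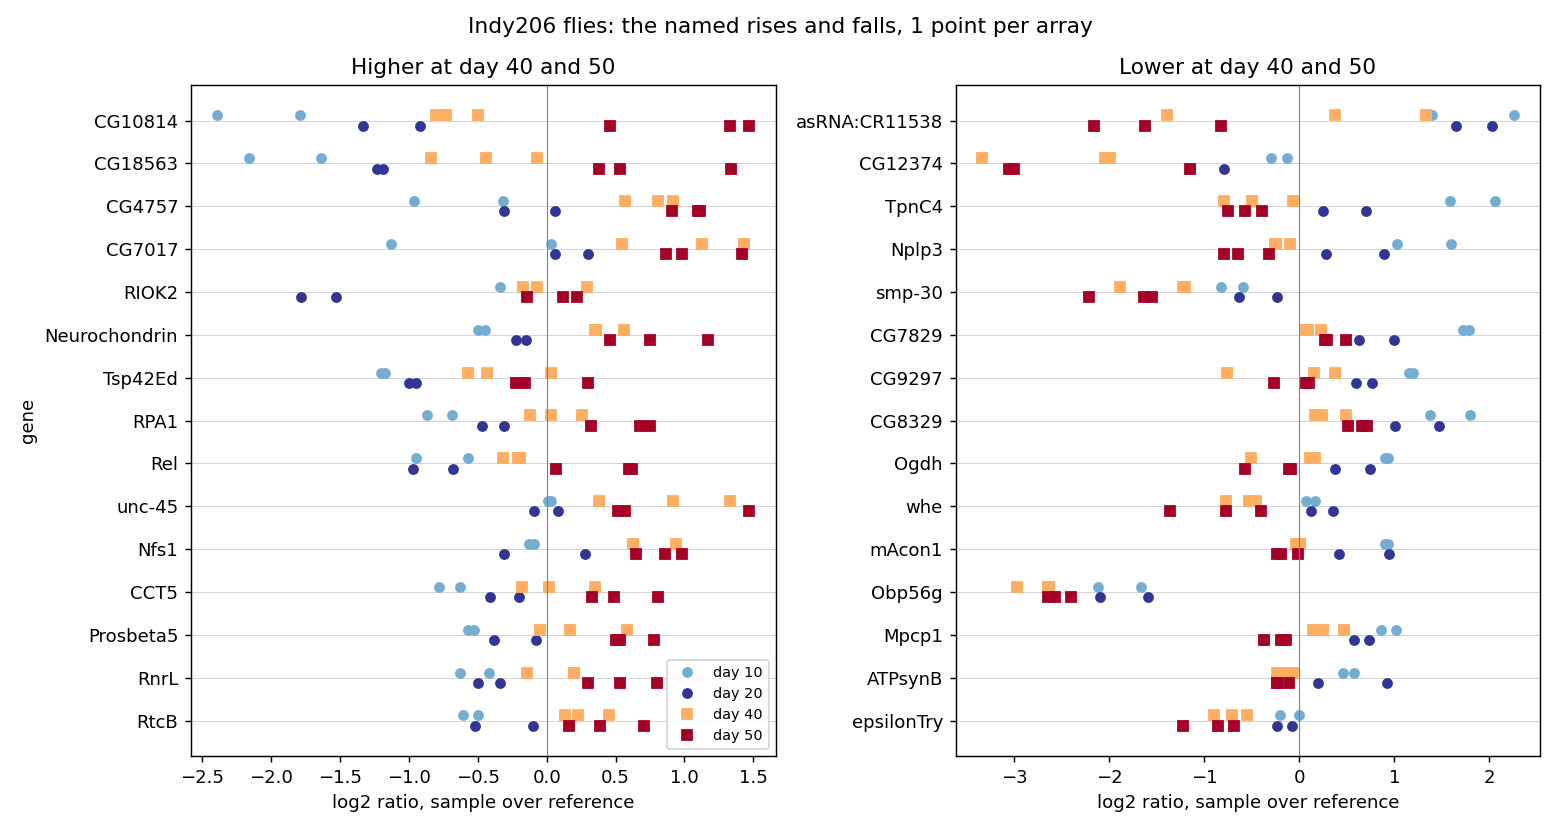
Levels (log2 ratio of sample over reference, horizontal axis) of the 15 named rises and 15 named falls, 1 point per Indy206 array, with circles for day 10 and 20 and squares for day 40 and 50. The rule that chose these genes requires the squares to lie to 1 side of the circles, and RIOK2, whose day 20 arrays are its 2 lowest, is on the 400 spots.

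The flight muscle gene TpnC4, an isoform of the calcium sensor troponin C, fell. It stood at 1.59 and 2.06 on the day 10 arrays and at 0.70 and 0.25 on those of day 20, then at -0.79, -0.07 and -0.50 on day 40 and -0.57, -0.39 and -0.75 on day 50. Day 10 was above day 20, and both were above every older array, which the rule for named falls requires. The difference was -1.66 ± 0.26, which leaves 0.317 of the young ratio (adjusted p = 0.0017). Of 20 measured muscle markers 3 fell, TpnC4, Zasp66 and fln, none rose, and the list median was -0.21. Zasp66, a protein of the Z-disc, fell by 0.43 (adjusted p = 0.015), and fln, the thick filament protein flightin, fell by 0.75 (adjusted p = 0.025). The other way, 6 of the 20 lay above 0 without a call, among them the flight muscle actin gene Act88F at 0.43 ± 0.15 (adjusted p = 0.25), whose arrays did not overlap, and the muscle LIM protein gene Mlp60A at 0.39 ± 0.14 (adjusted p = 0.22). Between 1 and 3 of the list fell with 1 array left out, with Zasp66 called in 7 of the 10 fits and fln in 2.

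Nplp3, a precursor of neuropeptide-like proteins, stood at 1.60, 1.03, 0.89 and 0.28 on the younger arrays and at -0.25, -0.26, -0.10, -0.79, -0.65 and -0.32 on the older ones. It was positive on all younger and negative on all older arrays. The difference was -1.35 ± 0.24 (adjusted p = 0.0039), and it was the 1 call among 18 measured neuropeptide genes, whose median was -0.01. The smp-30 gene, named after the rat senescence marker protein, fell by 1.05 ± 0.24 (adjusted p = 0.025), from between -0.83 and -0.24 to between -2.21 and -1.20.

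The largest fall of a named gene was that of asRNA:CR11538, an antisense RNA. Its younger arrays stood between 1.40 and 2.26 and its older ones between -2.16 and 1.33, a difference of -2.55 ± 0.55 (adjusted p = 0.016). The strand that its spot detects is not given in the sources used here, so its signal and that of an overlapping gene cannot be told apart. CG12374 fell by 1.84 ± 0.40 (adjusted p = 0.018), with its highest older and lowest younger array both at -1.15 after rounding.

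The other named falls were smaller. CG7829 fell by 1.04 ± 0.19 (adjusted p = 0.0045), CG8329 by 0.95 ± 0.21 (adjusted p = 0.021), CG9297 by 0.99 ± 0.25 (adjusted p = 0.049) and whe by 0.90 ± 0.19 (adjusted p = 0.014). The odorant-binding protein gene Obp56g fell by 0.78 ± 0.18 (adjusted p = 0.025) and the trypsin gene epsilonTry by 0.70 ± 0.18 (adjusted p = 0.045). With the 400 spots set aside, CG9297 had adjusted p = 0.054 and epsilonTry 0.05, neither called.

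TpnC4, Nplp3, CG7829, mAcon1 and Mpcp1 were called in all 10 fits with 1 array left out. Ogdh was called in 9, CG8329 and whe in 8, asRNA:CR11538 in 7, CG12374, Obp56g and ATPsynB in 5, smp-30 in 4, and CG9297 and epsilonTry in 1 each. The highest adjusted p came without day 20 replicate 1 for CG8329 (0.16), Obp56g (0.22) and ATPsynB (0.27), and without day 20 replicate 2 for Ogdh (0.062) and whe (0.058). It came without day 10 replicate 1 for asRNA:CR11538 (0.1), smp-30 (0.13) and epsilonTry (0.2), without day 10 replicate 2 for CG12374 (0.072), and without day 40 replicate 2 for CG9297 (0.15).

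The ATP synthase uses the proton gradient of the inner mitochondrial membrane to make ATP. All 13 measured subunits lay below 0, 5 of them fell, and the median difference was -0.50. Among all units 0.383% were called lower and the median was -0.02. ATPsynO, a subunit of the stalk that holds the catalytic head, stood at 1.07, 0.66, 0.08 and 0.68 on the younger arrays and at 0.24, -0.29, -0.10, -0.26, -0.04 and 0.10 on the older ones. Day 20 replicate 1 lay among the older arrays, so the groups overlap. The difference was -0.68 ± 0.12 (adjusted p = 0.0038). ATPsynB, a stalk subunit too, fell by 0.71 ± 0.16 (adjusted p = 0.024), ATPsyngamma, the central shaft, by 0.58 ± 0.12 (adjusted p = 0.012), ATPsynE by 0.56 ± 0.13 (adjusted p = 0.034) and the catalytic subunit ATPsynbeta by 0.47 ± 0.11 (adjusted p = 0.039).

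The median of the ATP synthase list on each array was 0.57 and 0.46 at day 10, 0.11 and 0.31 at day 20, and between -0.24 and -0.02 on the 6 older arrays. The 2 sets of arrays did not overlap. In the fits with 1 array left out, between 1 and 5 subunits fell and the list median stayed between -0.55 and -0.45. Mpcp1, the carrier that brings phosphate into mitochondria for ATP synthesis, stood at 0.86, 1.02, 0.73 and 0.58 on the younger arrays and between -0.37 and 0.47 on the older ones. It fell by 0.77 ± 0.13 (adjusted p = 0.0021).

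The respiratory chain, which pumps the protons, had fewer calls. Complex I had 21 measured subunits, all below 0, with none called and a median of -0.26. ND-42, its member with the smallest p, differed by -0.40 ± 0.10 (adjusted p = 0.052). Complexes II and III had 8 measured subunits, all below 0, of which 3 fell, with a median of -0.45: UQCR-Q by 0.62 ± 0.14 (adjusted p = 0.024), Cyt-c1 by 0.45 ± 0.11 (adjusted p = 0.03) and UQCR-14 by 0.56 ± 0.14 (adjusted p = 0.045), all of complex III. Complex IV had 8, all below 0, of which COX5A fell (0.61 ± 0.15, adjusted p = 0.039), with a median of -0.40.

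On single arrays the complex I median ran from 0.19 to 0.41 in the younger flies and from -0.07 to 0.08 in the older ones. That of complexes II and III ran from 0.36 to 0.88 and from 0.07 to 0.30, and that of complex IV from 0.21 to 0.54 and from -0.09 to 0.18. None of the 3 overlapped. With 1 array left out the count of falls was between 0 and 2 for complexes II and III and 0 for complex IV, so the call of COX5A was lost in each of the 10 fits, with adjusted p up to 0.19 without day 20 replicate 1. None of these lists has a member on the 400 spots.

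The citric acid cycle list, with the pyruvate dehydrogenase that feeds it, held 11 measured enzymes, of which 5 fell and none rose, with a median of -0.41, or -0.43 without Idh3g, which is on the 400 spots. The mitochondrial aconitase mAcon1, which isomerises citrate, stood at 0.93, 0.90, 0.42 and 0.94 on the younger arrays and at 0.01, -0.03, 0.01, -0.24, -0.01 and -0.19 on the older ones. Day 20 replicate 1 was the lowest younger array. It lay above every older one, which the rule for named falls requires. The difference was -0.87 ± 0.15, or 0.547 of the young ratio (adjusted p = 0.0038). Ogdh, the first subunit of oxoglutarate dehydrogenase, fell by 0.91 ± 0.19 (adjusted p = 0.012), and Idh3b, a subunit of the NAD-dependent isocitrate dehydrogenase, by 0.83 ± 0.19 (adjusted p = 0.025). The acetyltransferase of pyruvate dehydrogenase, muc, fell by 0.46 ± 0.10 (adjusted p = 0.012) and the succinyl-CoA synthetase subunit Scsalpha1 by 0.41 ± 0.10 (adjusted p = 0.041). Between 2 and 5 of the list fell with 1 array left out. Idh3b was called in 4 of the 10 fits, with adjusted p up to 0.23 without day 10 replicate 1, and Scsalpha1 in 2, with adjusted p up to 0.19 without day 20 replicate 1.

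All 11 measured genes of glycolysis lay below 0, with a median of -0.41, and 2 of them fell. Gpdh1, the glycerol-3-phosphate dehydrogenase of the flight muscle shuttle, fell by 0.50 ± 0.12 (adjusted p = 0.026). The enolase gene Eno fell by 0.50 ± 0.13 (adjusted p = 0.049), and had adjusted p = 0.055 with the 400 spots set aside. With 1 array left out between 0 and 3 glycolysis genes fell, with Gpdh1 called in 4 of the 10 fits and Eno in 1, and the highest adjusted p of both, 0.23 and 0.18, came without day 10 replicate 1. Of 11 genes of fatty acid oxidation 10 lay below 0 with a median of -0.21, and none was called. SREBP, the transcription factor of lipid synthesis, was the 1 call among 14 genes of lipid synthesis and storage, and it rose by 0.55 ± 0.11 (adjusted p = 0.0099).

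**Figure D2:**
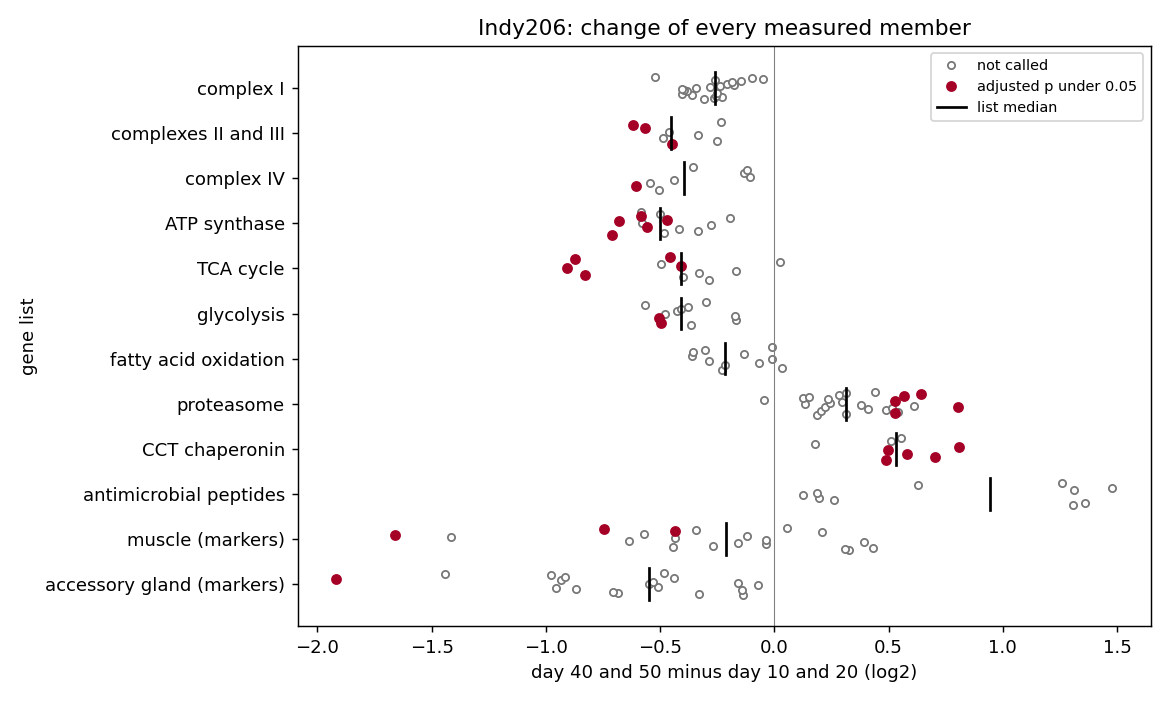
Difference of day 40 and 50 minus day 10 and 20 in Indy206 (log2, horizontal axis) for every measured member of 12 gene lists, filled where the adjusted p was under 0.05, with a bar at the list median. The energy lists lie almost wholly left of 0 and the proteasome, chaperonin and antimicrobial peptide lists right of it.

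Other tissues' markers moved in the same arrays. The muscle list median ran from 0.15 to 0.55 in the younger and from 0.00 to 0.34 in the older arrays, which overlap. The midgut list, 40 digestive enzymes, ran from -0.56 to -0.30 and from -1.33 to -0.76, which do not overlap. Its median difference was -0.35, with 32 of 40 below 0 and epsilonTry the 1 call. The accessory gland list, whose organ lies in the abdomen and was not part of the dissection, ran from -3.05 to -1.78 and from -3.95 to -2.42. All 19 members lay below 0 with a median of -0.55, and of -0.53 without the 4 members on the 400 spots, the called Mst57Dc among them. The testis list ran from -1.57 to -0.80 and from -1.78 to -1.06, with a median difference of -0.10 that was 0.09 after quantile normalization. The accessory gland and testis medians lay below 0 on all 42 arrays, controls included, that of the accessory gland between -4.02 and -1.34. The reference is described as pooled control RNA, and why it stood above every sample for these lists was not tested.

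With the array's mean of the testis and accessory gland medians as a covariate, 138 units were called. ATPsynO, ATPsyngamma, ATPsynB, mAcon1, Ogdh, muc and Scsalpha1 were still called, whereas ATPsynE, ATPsynbeta, UQCR-Q, Cyt-c1, UQCR-14, COX5A, Idh3b, Gpdh1 and Eno were not. The list medians were then -0.44 for ATP synthase, -0.38 for complexes II and III and -0.14 for the midgut. The part of muscle and midgut markers in these results was not tested.

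The CCT chaperonin is a ring of 8 different subunits that folds actin, tubulin and other cytosolic proteins. The list was drawn up after its values were seen. All 8 subunits lay above 0, 5 rose, and the median difference was 0.53, beside 0.671% of all units called higher. CCT2 stood at -0.48, -0.58, -0.33 and -0.10 on the younger arrays and at 0.02, 0.30, -0.03, 0.45, 0.58 and 0.67 on the older ones. Every older array lay above every younger one. The rise was 0.70 ± 0.11 (adjusted p = 0.0017), and CCT5 rose by 0.81 ± 0.15 (adjusted p = 0.0047). CCT3 (0.58 ± 0.13, adjusted p = 0.024), CCT4 (0.50 ± 0.11, adjusted p = 0.024) and CCT1 (0.49 ± 0.12, adjusted p = 0.043) were the others. With 1 array left out between 2 and 6 subunits rose. CCT2 and CCT5 were called in all 10 of these fits, CCT3 in 6, CCT4 in 5 and CCT1 in 4. The list's array medians overlap, from -0.74 to -0.12 in the younger and from -0.14 to 0.35 in the older flies.

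The proteasome degrades ubiquitin-tagged proteins. Of 25 measured subunits 24 lay above 0, 5 rose and none fell, with a median of 0.32. Prosbeta5, the subunit with the chymotrypsin-like site, stood at -0.57, -0.53, -0.38 and -0.08 on the younger arrays and at -0.05, 0.58, 0.17, 0.53, 0.78 and 0.50 on the older ones. The lowest older array lay just above the highest younger one, and the rule for named rises requires it to lie above. The rise was 0.81 ± 0.15, or 1.75-fold (adjusted p = 0.0059). In the regulatory cap Rpn2 rose by 0.53 ± 0.10 (adjusted p = 0.0044), the ATPase Rpt3 by 0.64 ± 0.13 (adjusted p = 0.0094) and Rpn8 by 0.57 ± 0.13 (adjusted p = 0.023). Prosalpha4 of the core ring rose by 0.53 ± 0.13 (adjusted p = 0.045). The array medians overlap, from -0.66 to -0.13 in the younger and from -0.35 to 0.12 in the older flies, and between 2 and 6 subunits rose with 1 array left out.

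Rel encodes Relish, the NF-kappaB factor that switches on antibacterial genes in the Imd pathway. It stood at -0.95, -0.57, -0.68 and -0.97 on the younger arrays and at -0.19, -0.21, -0.32, 0.60, 0.62 and 0.07 on the older ones. The groups did not overlap, which the rule for named rises requires, and day 50 lay above day 40. The rise was 0.89 ± 0.21 (adjusted p = 0.025). IKKbeta, a kinase upstream of Relish, rose by 0.53 ± 0.12 (adjusted p = 0.025), and Myd88, an adaptor of the Toll receptor, by 0.22 ± 0.06 (adjusted p = 0.039). They were the 3 calls among 34 genes of immune recognition and signalling, 30 of which lay above 0 with a median of 0.15, or 0.14 without Tl, grass and spz, which are on the 400 spots. All 3 depended on single arrays: IKKbeta was called in 4 of the 10 fits with 1 array left out and Myd88 in 3, with adjusted p up to 0.33 and 0.29 without day 20 replicate 1.

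The antimicrobial peptides, which the fat body secretes into the blood, are targets of these pathways. All 10 measured genes lay above 0, between 0.13 and 1.48 with a median of 0.94, and none was called. Def, which encodes the peptide Defensin, stood at -0.39, -0.68, 0.18 and -0.11 on the younger arrays and at 0.57, 0.98, 0.54, 1.41, 1.65 and 1.20 on the older ones. The arrays did not overlap, and the difference was 1.31 ± 0.34 (adjusted p = 0.056). The diptericin gene DptB differed by 1.48 ± 0.45 (adjusted p = 0.13), AttD by 1.36 ± 0.41 (adjusted p = 0.12) and Mtk by 1.26 ± 0.52 (adjusted p = 0.37). Listericin differed by 0.63 ± 0.25 (adjusted p = 0.33). The Bomanin genes BomBc2, BomBc3, BomT2 and BomT3 moved little, by between 0.02 and 0.37 over the fits with 1 array left out. The list's array medians ran from -0.51 to -0.02 in the younger and from -0.12 to 0.84 in the older flies, which overlap.

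Among 9 measured stress chaperones the small heat shock protein gene Hsp26 rose by 0.67 ± 0.13 (adjusted p = 0.0062). Its younger arrays stood at -1.16, -0.54, -0.76 and -0.57, its day 40 arrays at -0.55, -0.39 and -0.34 and its day 50 arrays at 0.13, 0.13 and 0.47. Day 40 lay at the upper edge of the younger arrays and day 50 above all of them. The related l(2)efl differed by 0.94 ± 0.26 (adjusted p = 0.081) and Hsp22 by -0.02 ± 0.20 (adjusted p = 0.99).

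**Figure D3:**
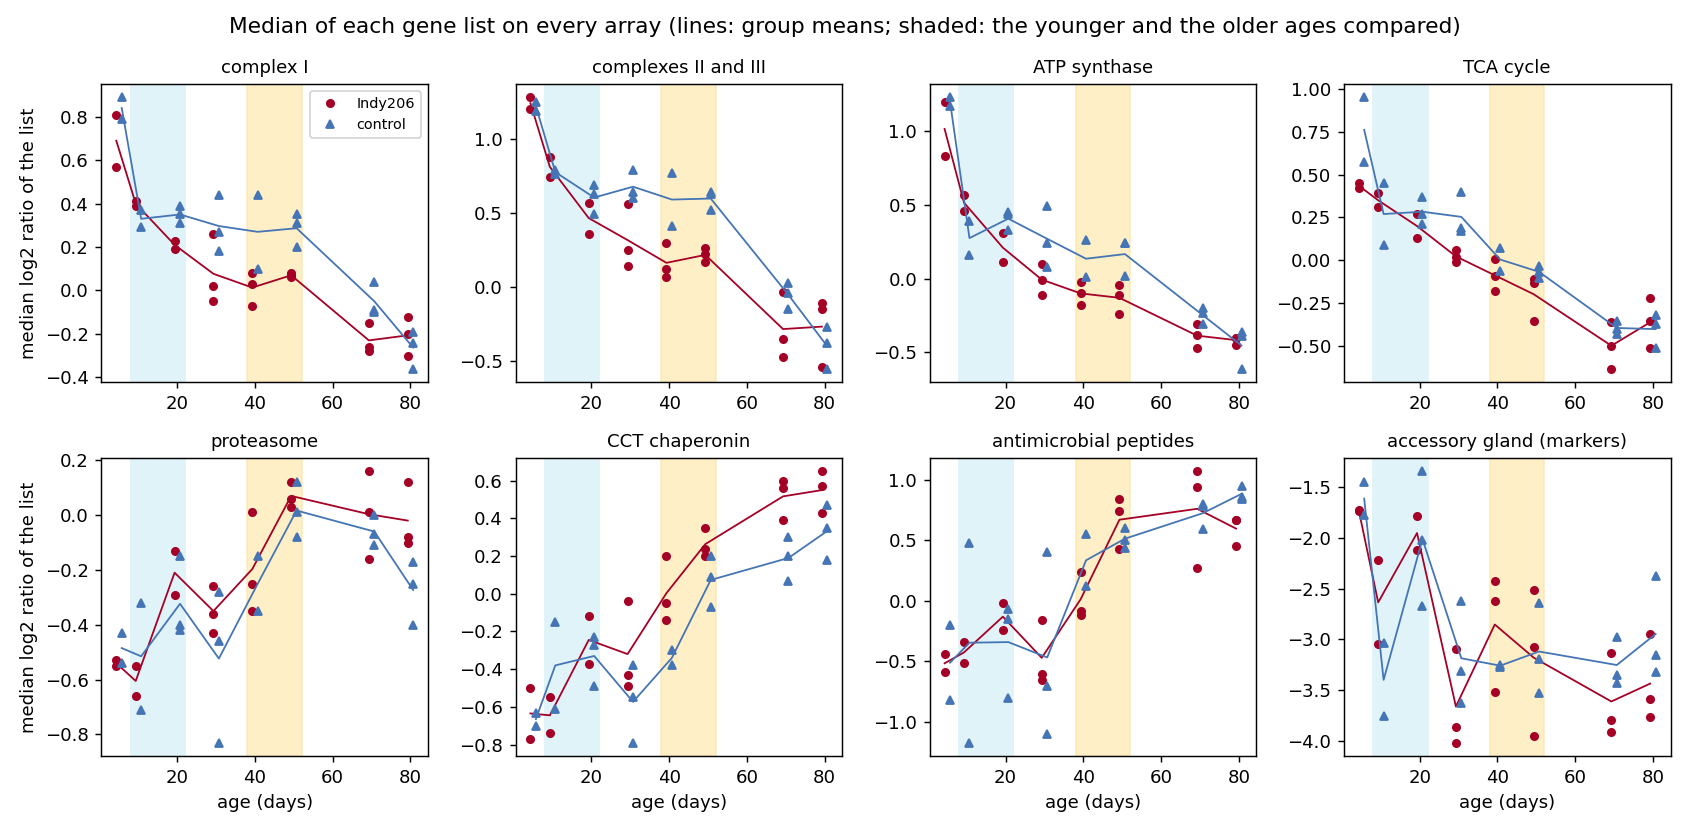
Median log2 ratio of 8 gene lists (vertical axis) on every array against age in days, circles for Indy206 and triangles for controls, with lines through the group means and shading over day 10 to 20 and day 40 to 50. In Indy206 the 3 lists of the respiratory chain and ATP synthase lie lower on all shaded older arrays than on the younger ones.

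In the eye, Gbeta76C, the G protein subunit of phototransduction, fell by 0.71 ± 0.16 (adjusted p = 0.023) and the corneal protein gene retinin by 0.89 ± 0.23 (adjusted p = 0.047), 2 of 13 measured photoreceptor markers with a list median of -0.04. Retinin had adjusted p = 0.052 with the 400 spots set aside. With 1 array left out Gbeta76C was called in 3 of the 10 fits and retinin in 1, with at most 1 of the list falling. The highest adjusted p was 0.13 for Gbeta76C, without day 10 replicate 2, and 0.21 for retinin, without day 20 replicate 1. In the controls retinin fell by 1.28 ± 0.23 (adjusted p = 0.012). No member was called of the lists of insulin and FOXO signalling (13 measured), glutathione S-transferases (27), antioxidant enzymes (13), cytochrome P450 enzymes (77), ribosomal proteins of the cytosol (32) and mitochondria (60), translation factors (41), V-ATPase and autophagy (43), the circadian clock (11), cuticle proteins (93, of which 9 are on the 400 spots), neuron markers (16), fat body and yolk (8) and haemocytes (12). Their medians lay between -0.10 and 0.09. In the fat body list the storage protein gene Lsp2 varied between 1.02 and 2.42 on the younger and between -2.65 and 1.69 on the older arrays, a difference of -2.24 ± 0.65 (adjusted p = 0.1).

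The 20 called single genes on the 400 spots were 8 higher and 12 lower. For 15 of them both day 20 arrays lay outside the range of the other 8 arrays. RIOK2 is 1 of these, and it stood at -0.34 and -0.18 at day 10, -1.78 and -1.53 at day 20 and between -0.17 and 0.29 on the older arrays. The sperm gene Mst98Cb stood at -3.59 and -3.23 at day 10, 0.05 and 0.20 at day 20 and between -4.77 and -2.95 later. In both genes the day 20 arrays stand apart and day 10 lies near the older arrays. Against day 10 alone the difference was 0.30 for RIOK2 in place of 1.00, -0.38 for Mst98Cb in place of -2.15, -0.51 for Mst57Dc in place of -1.92 and -0.77 for CG11892 in place of -1.88. The sign turned for CG3330, at 0.14 in place of -1.40, and danr, at -0.03 in place of 1.00. For the other 5 genes, CG11211, CG6066, Clbn, GlnRS and Sil1, day 20 did not stand apart in this way, and CG6066 differed by 0.52 against day 10 and by 0.56 against both younger ages.

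For 2 of the 20 genes the change against day 10 alone was called too. CG11211 fell by 1.44 ± 0.26 (adjusted p = 0.0047), and Clbn, a factor of ribosome quality control, rose by 0.63 ± 0.14 (adjusted p = 0.029). The tRNA synthetase GlnRS differed by 0.60 ± 0.18 on that measure (adjusted p = 0.14), and Sil1, a nucleotide exchange factor of the endoplasmic reticulum, by 0.48 ± 0.13 (adjusted p = 0.083). Off these spots GluProRS rose by 0.45 ± 0.11 (adjusted p = 0.045). It and GlnRS were the 2 calls among 24 aminoacyl-tRNA synthetases, a list drawn up after its values were seen, with a median of 0.07.

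Within the younger ages, day 20 minus day 10 gave 33 calls (0.173%), of which 22 lay on the 400 spots, and 1 call without those spots. List medians moved between these ages as well, by 0.33 for the proteasome and 0.36 for the chaperonin, beside 0.32 and 0.53 in the pooled comparison. Complex I moved by -0.22 beside -0.26, and complexes II and III by -0.32 beside -0.45. ATP synthase moved by -0.16 beside -0.50 and the citric acid cycle by -0.05 beside -0.41. The pooled difference does not show when between day 10 and day 50 a list moved. Within the older ages, day 50 minus day 40 gave 1 call (0.00524%), on a spot without a paired gene. The 4 single-age comparisons gave 6 calls (0.0315%) for day 40 minus 10, 62 (0.325%) for day 40 minus 20, 130 (0.681%) for day 50 minus 20 and 327 (1.71%) for day 50 minus 10. Of these 1, 39, 42 and 11 lay on the 400 spots, in the same order. They share arrays with each other and with the pooled comparison. Left out in turn, day 20 replicate 2 moved the count for day 20 minus day 10 to 66, with 11 on the 400 spots, and for day 50 minus day 40 the count was 57 without day 40 replicate 1, 43 without day 50 replicate 3 and 0 without day 40 replicate 2 or 3.

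Day 30 had 3 arrays that the pooled groups do not use. Of the 94 single genes that rose off the 400 spots, 9 were at or beyond the older mean at day 30 and 5 had not moved toward it, and the median position was 0.52 of the way from young to middle age. For the 49 that fell these counts were 4 and 0, and the median position was 0.65. The younger and older arrays both chose these genes and set the ends of this scale, so a position between the ends is a description and not a sign of a steady course. Day 30 minus day 10 and 20 gave 80 calls (0.419%), 15 of them on the 400 spots, and 40 without those spots. Day 40 and 50 minus day 30 gave 34 calls (0.178%).

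Some genes did not run steadily through day 30. CG8112, listed as ACAT, stood between 0.51 and 0.96 on the younger arrays, at 2.09, 2.32 and 2.47 at day 30 and between 0.17 and 1.59 later. It rose to day 30 by 1.65 ± 0.36 (adjusted p = 0.035). Def stood at -1.29, -0.57 and -0.62 at day 30, and asRNA:CR11538, already low at day 30 with -1.86, -0.27 and -1.85, fell by 3.16 ± 0.65 to that age (adjusted p = 0.027). CG10814 rose from day 30 to middle age by 1.73 ± 0.33 (adjusted p = 0.014).

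The day 30 counts rested on single arrays. Without day 30 replicate 3 the calls were 790, with 47 on the 400 spots, for day 30 against the younger arrays and 342 for the older arrays against day 30. Without day 30 replicate 1 they were 6 and 0, and without replicate 2 they were 10 and 11. For day 30 against the younger arrays the count was 51 without day 10 replicate 1, and for the older arrays against day 30 it was 22 without day 50 replicate 1 and 64 without day 40 replicate 1.

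Beyond middle age most of the called genes went further the same way. At day 70 the mean lay beyond that of day 40 and 50 for 83 of the 94 risers and 44 of the 49 fallers off the 400 spots, and at day 80 for 78 and 38. The levels of these arrays did not enter the difference that chose the genes. The share of all units beyond the older mean is not given here. The standard deviation over spots was 0.660 to 0.853 on the day 70 arrays and 0.441 to 0.749 on those of day 40 and 50. Its part in these counts was not tested.

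In the matched controls the same ages gave 10 calls (0.0524%), 7 higher (0.0367%) and 3 lower (0.0157%), and 1354 units at an unadjusted p under 0.05. RPA1 was called in both genotypes, with a control difference of 0.78 ± 0.12 (adjusted p = 0.0032), and so was Nplp3, with -1.28 ± 0.24 (adjusted p = 0.03). Of the 94 genes that rose in Indy206 off the 400 spots, 93 lay above 0 in the controls, where 46.8% of all units did. Their median difference was 0.58 in Indy206 and 0.35 in the controls. Of the 49 that fell, 48 lay below 0 in the controls, with medians of -0.62 and -0.38. Since these genes were chosen for their size in Indy206, the smaller control medians say nothing about a difference between genotypes.

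That difference was tested for each unit as the Indy206 change minus the control change. No unit (0%) was called by limma, the smallest adjusted p was 0.18, and 658 units had an unadjusted p under 0.05. The single gene with the smallest p was CG14356, with a difference of 0.01 ± 0.12 in Indy206, 0.79 ± 0.12 in controls and -0.78 ± 0.17 between them. In the controls its day 40 arrays stood at 1.24 and 1.86 and its other 8 arrays between -0.14 and 0.62. Next came CG12128, which rose in Indy206 by 0.58 ± 0.10 against 0.04 ± 0.10 in controls, and CG13607, with -0.51 ± 0.14 against 0.20 ± 0.14.

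The energy lists had larger medians in Indy206 than in the controls, without a called difference in any member. The control medians were -0.06 in complex I, -0.11 in the complexes II and III, -0.08 in complex IV, -0.18 for ATP synthase, -0.33 for the citric acid cycle and -0.28 for glycolysis. Over 20 fits that each left out 1 array of either genotype, the median of the members' genotype differences stayed between -0.33 and -0.17 in complex I, -0.44 and -0.28 in the complexes II and III, -0.35 and -0.12 in complex IV, -0.36 and -0.24 for ATP synthase and -0.21 and -0.10 for the citric acid cycle. For the proteasome, with a control median of 0.34, it ran from -0.03 to 0.12. For the CCT chaperonin, with a control median of 0.22, it ran from 0.17 to 0.43, and CCT5 differed between genotypes by 0.58 ± 0.21 (adjusted p = 1). For the antimicrobial peptides, with a control median of 0.44, it ran from -0.19 to 0.43. These 20 fits share most of their arrays, so a range that stays on 1 side of 0 adds little.

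**Figure D4:**
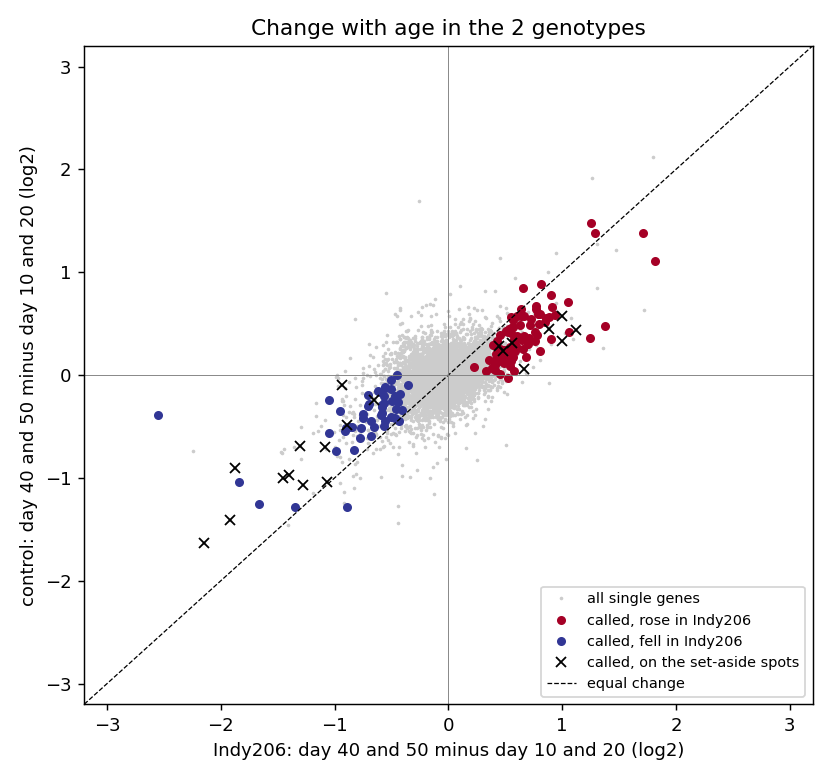
Difference of day 40 and 50 minus day 10 and 20 (log2) for every single gene, in Indy206 (horizontal axis) against the controls (vertical axis), with the called rises and falls in Indy206 coloured, crosses for called genes on the 400 spots and a dashed line of equal change. The called genes lie on the same side of 0 in both genotypes with few exceptions.

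Both counts moved with single arrays. In the controls the count was 130 without day 10 replicate 1, 45 and 44 without day 40 replicates 1 and 2, 26 without day 20 replicate 3 (10 of them on the 400 spots), 16 without day 50 replicate 3 and 6 without day 20 replicate 1. For the genotype difference it was 31 without control day 10 replicate 1, with 1 higher and 30 lower. Without Indy206 day 20 replicate 2 it was 31 too, but with 29 higher and 2 lower. It was 20 and 11 without control day 40 replicates 1 and 2, and 12 without Indy206 day 20 replicate 1. It was 7 and 6 without Indy206 day 10 replicates 1 and 2, 1 without control day 10 replicate 2, and 0 for each of the other 12 arrays.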

How the data were processed

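The authors deposited 1 log2 ratio per spot and array, 20000 spots on 42 arrays, made with limma per the submitters' processing notes, without a version. The sources used here do not give the background correction, normalization, centring, log base or direction. Base 2 and sample over reference, Cy5 over Cy3 per the labels, are likely, and every sign rests on that. No value was missing, and none was normalized again. Signal over background was not used here.

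The platform annotation named the spots: 10827 had 1 gene, 227 several, 8946 none paired. Of the first, 10823 matched the gene table of assembly Release 6 plus ISO1 MT, used for names and synonyms only. Spots of 1 gene were averaged (793 genes), which gave 19077 units. The linear model (limma 3.58.1, R 4.3.3, empirical Bayes) had 16 group means without a replicate block and 26 residual degrees of freedom. The Benjamini-Hochberg adjustment ran over all units of a contrast. The scripts were tested on simulated data. Figures used matplotlib 3.10.9 in Python 3.11.15.

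Named genes are the 15 largest called rises and 15 largest called falls whose arrays do not overlap (bare CG or CR numbers for at most 4 a side), up to 4 members of each list with the smallest p, Indy, the 3 smallest p-values of the genotype difference, and the 2 largest called genes a side of the other contrasts. Members and lists were chosen with earlier results of these data known. The 400 spots were set aside as an alternative chosen after seeing the data, and so were the replicates 1 and 2 and the list scaling alternatives. ATPsynbeta, Scsalpha1, Prosalpha4, CCT1, Mtk, BomBc2, BomBc3, BomT2, BomT3, Hsp22, Act88F, Mlp60A, CG11892, CG11211, CG3330, CG5402, CG11854, CG6066, danr, Clbn and Sil1 lie outside the rule and were named after their values were seen.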

Additional observations from a re-analysis of the deposited data

Results flagged for a closer look

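Among the 30 named genes and 36 list medians, 132 sets of 4 younger or 6 older Indy206 arrays were examined for an array far from the others of its set, and 5 had such an array, where chance gives about 1 in 20. Each set pools 2 ages. In the younger set, mAcon1 on day 20 replicate 1 stood at 0.42 and the other 3 arrays between 0.90 and 0.94. The fatty acid oxidation median was -0.02 on day 10 replicate 2 and 0.09 to 0.10 on the others, and the V-ATPase and autophagy median was 0.02 on day 20 replicate 2 and -0.11 to -0.10 on the others. In the older set, day 40 replicate 3 had a complex I median of -0.07, with the other 5 arrays between 0.03 and 0.08, and an odorant-binding protein median of 0.08, with the others between 0.17 and 0.22.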

How the results depend on the processing

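The 201 calls became 421 after quantile normalization (274 higher, 147 lower), 426 with array quality weights, 96 with replicates 1 and 2 only, 14 with the 10 arrays alone as 2 groups, and 130, 6, 62 and 327 for day 50 minus 20, day 40 minus 10, day 40 minus 20 and day 50 minus 10. With 1 array left out they ran from 69 to 205, the control count of 10 from 6 to 130, the genotype difference of 0 from 0 to 31, day 20 minus day 10 (33) from 27 to 66, day 50 minus day 40 (1) from 0 to 57, day 30 minus young (80) from 6 to 790 and middle age minus day 30 (34) from 0 to 342. After quantile normalization these counts were 45 for the controls, 87 for day 20 minus day 10, 8 for day 50 minus day 40, 14 for day 30 minus young and 8 for middle age minus day 30. Without the 400 spots they were 1 for day 20 minus day 10 and 40 for day 30 minus young. The cause of these moves was not tested.

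Replicate numbers were not taken to pair the arrays: of 13 same-numbered pairs among the 4 Indy206 groups 8 correlated over 0.1, from -0.54 to 0.63. With the replicate number as a block 154 units were called for Indy206, 9 for the controls and 0 for the difference and for day 50 minus day 40. Of the 163 called single genes 60 were called again with replicates 1 and 2 only. All 163 kept their direction under both scalings and without each array, which their choice on the same arrays made likely. At single ages 161 kept it for day 40 minus 10, 162 for day 40 minus 20, 160 for day 50 minus 10 and 163 for day 50 minus 20. The signs turned for CG3330, CG5402, CG11854 and danr, all on the 400 spots, and for Myd88, -0.027 at day 40 minus 20. Indy, not called, was 0.063 after quantile normalization, 0.077 at day 40 minus 10 and ran from -0.203 to 0.038 with 1 array left out. With the marker covariate the cytochrome P450 median was -0.043 and the midgut median -0.141. The circadian clock median ran from -0.188, without day 40 replicate 1, to -0.039 with 1 array left out.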

Other observations

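Other called genes, named after their values were seen, belong to groups for which no list was drawn up. Archease, a cofactor of the tRNA ligase RtcB, stood between -0.32 and -0.23 on the 4 younger arrays and between 0.06 and 0.67 on the 6 older ones, a rise of 0.66 ± 0.13 (limma, adjusted p = 0.006). The stress kinase gene p38a rose by 0.69 ± 0.11 (adjusted p = 0.0017), wfs1, the wolframin of the endoplasmic reticulum, by 0.56 ± 0.10 (adjusted p = 0.003) and Ero1L, an oxidase of the same compartment, by 0.49 ± 0.09 (adjusted p = 0.0055). Archease, p38a and wfs1 were called in all 10 fits with 1 array left out, and Ero1L in 8.

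Irbp, the Ku70 protein of double-strand break repair, rose by 0.76 ± 0.15 (adjusted p = 0.0059), rad50 of the same process by 0.44 ± 0.09 (adjusted p = 0.0098), the ubiquitin receptor gene Rad23 by 0.54 ± 0.10 (adjusted p = 0.0037) and the proteasome activator gene REG by 0.42 ± 0.10 (adjusted p = 0.027). Rad23 was called in all 10 fits with 1 array left out, Irbp in 9, rad50 in 8 and REG in 3. The melanization protease gene Sp7 rose by 0.44 ± 0.10 (adjusted p = 0.019) and the serpin gene Spn47C by 0.58 ± 0.13 (adjusted p = 0.024), called in 7 and 5 of the 10. In the controls all 10 of these genes lay above 0, between 0.12 for Ero1L and 0.42 for Irbp. None of them was called there, where 0.0524% of all units were, and none was called in the difference between genotypes.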
